A study of Rattus norvegicus with 23 samples.

Results

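The kidney's response to the loss of its partner was measured in SBN/y, the hypertension-resistant line of the Sabra rat. It was read from 11 of the 23 arrays of a study of male Sabra rats and proteinuria, chosen by their sample labels: 6 kidneys of SBN/y rats left with 1 kidney and 5 of SBN/y rats with 2. All were males of 4 months of age, fed standard chow with free access to water, 3 months after a uninephrectomy or, for the rats with 2 kidneys, a sham operation. SBN/y is an inbred line, so both groups carry the same background, and the labels name no transgene or drug. The other 12 arrays come from SBH/y, the hypertension-prone Sabra line, treated in the same way (6 with 2 kidneys and 6 with 1). They serve for comparison, and they also entered the main fit. The estimate of spread behind its standard errors and p-values, and the choice of each gene's brightest probe set, therefore rest on all 23 arrays. Each array holds the total RNA of 1 labelled kidney sample, read at 31042 probe sets on a log2 scale, where a difference of 1 is a doubling. Beyond the sample names, nothing in the labels states that each sample is a separate rat, so a p-value here speaks only for the spread among the samples.

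When 1 kidney is removed, the other is known to take over filtration within days and to grow, mostly by enlargement of tubule cells rather than by new cells. In lines prone to hypertension or glomerular disease the same operation is a standard way of unmasking injury, since each nephron then handles more plasma. SBN/y rats are known to tolerate salt and nephron loss far better than SBH/y rats.

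The response was small. Of 31042 probe sets, 52 (0.168%) passed an adjusted p of 0.05 with limma, 26 of them higher (0.0838%) and 26 lower (0.0838%) with 1 kidney. At the level of genes, each read at its brightest probe set, 36 of 14217 passed (0.253%), of which 22 rose (0.155%) and 14 fell (0.0985%). Havcr1, a marker of injured proximal tubule, and Slc25a25, a mitochondrial carrier, were the only genes of these 36 that rose by at least 2-fold, and the median size of change among them was 0.44 log2. An unadjusted p under 0.05 was reached by 2364 probe sets (7.62%) and 1189 genes (8.36%). Among all genes, 4.56% were higher and 3.8% lower at that level, and 52.1% lay above 0. Counts for the gene lists below are to be read beside these shares. In 392 probe sets (1.26%) the arrays with 1 kidney lay entirely above or below those with 2. Of the 36 genes, 31 had groups that did not overlap, against 1.65% of all genes. The 36 were picked by p on these same arrays, which favours groups that do not overlap, so this count adds nothing to the calls. The remaining 5, which are Akr1b1, P4ha1, Slc6a6, Tsc22d1 and Srsf5, overlapped through a single array with 1 kidney each, replicate 6 for P4ha1 and replicate 4 for the other 4.

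The count of 52 depended on single arrays. It was 24 without replicate 3 of the kidneys with 1, 24 without replicate 3 of those with 2, 25 without replicate 4 and 32 and 34 without replicates 1 and 2 of the latter, 26 without replicate 1 of the former and 78 without its replicate 4. Among the 36 genes, 11 passed whichever array was left out: Ubd, Rcan1, Manf, Nkd2, Sfpq, Akr1b1, Slc25a25, Guca2b, Tgif1, Dnaja1 and Havcr1. The other 25 lost their call without at least 1 array, and for these the number of the 11 leave-one-out fits in which the call was kept is given as the call count.

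**Figure D1:**
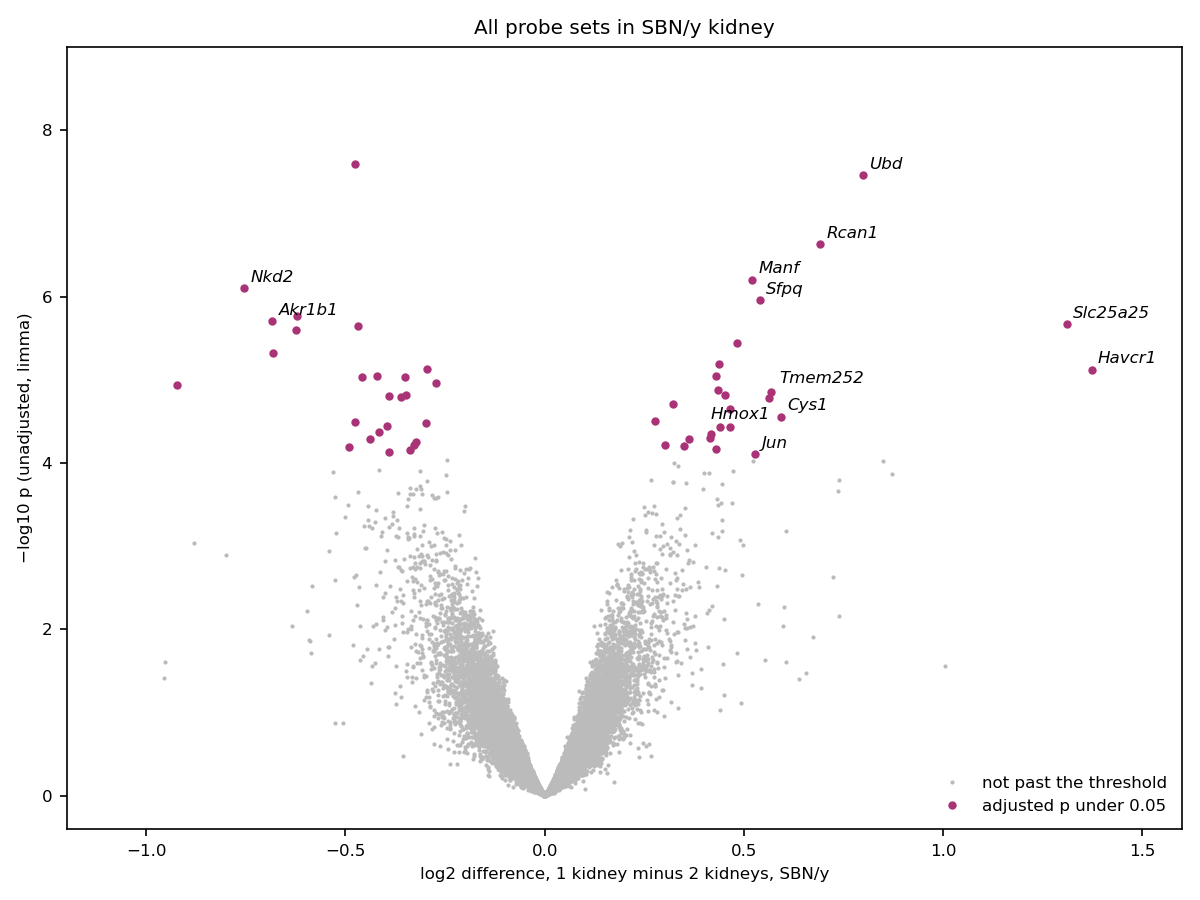
Every probe set as a point, with the log2 difference between SBN/y kidneys with 1 and with 2 on the horizontal axis and the unadjusted −log10 p of limma on the vertical axis. The 52 probe sets past the adjusted threshold are purple, genes changed by over 0.5 log2 are named, and Havcr1 and Slc25a25 lie far to the right of the rest.

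Some arrays stood apart. Arrays of SBN/y correlated at 0.993 to 0.997 over all probe sets. The first principal component of the 11 arrays (17.5% of the variance) was lowest in replicate 2 with 2 kidneys, at -26.2, and the second (15.5%) ran from 3.62 to 15.1 with 2 kidneys and from -14.0 to 2.34 with 1. The excess of 3′ over 5′ signal of the GAPDH control probes, which grows as RNA degrades, was 0.319 to 0.390 log2 with 2 kidneys and 0.374 to 0.482 with 1. Only replicate 4 of the kidneys with 1, at 0.374, lay in the range of the controls. With this measure as a covariate 62 probe sets passed, 17 higher and 45 lower, of which 31 were among the 52, and 20 of the 36 genes kept their call. The 16 that lost it, with adjusted p from 0.0681 to 0.183, were Cdkn1a, Cys1, Eps8l2, Gnpda1, Hmox1, Jun, Mmd, P4ha1, Pdp2, Rbm14, Slc28a2, Slc2a2, Slc6a6, Srsf5, Tsc22d1 and Zfp658l1. Their differences kept their sign. Some values moved little: for Jun it was 0.54 with the covariate and 0.53 without it, for Cys1 0.60 and 0.59, and for Eps8l2 -0.25 and -0.27. Others shrank more: Rbm14 stood at 0.26 with the covariate and 0.35 without it, and Mmd at 0.35 and 0.44. Tsc22d1 stood at 0.36 and 0.42, and Cdkn1a at 0.31 and 0.36. Marker levels were set against the kidney label: of 19 proximal tubule transport genes 0 were under the median probe set (4.66), against 6 of 6 urothelial and 4 of 5 adrenal markers.

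Slc25a25 encodes an ATP-Mg/phosphate carrier of the inner mitochondrial membrane that adjusts the matrix pool of adenine nucleotides. Its probe set was read at 7.04, 6.72, 7.01, 6.84 and 7.18 with 2 kidneys and between 7.80 and 8.61 (median 8.31) with 1 kidney. The gene rose by 1.31 ± 0.22 log2 (SE; adjusted p = 0.00699), or 2.48-fold. Among 19 measured mitochondrial carriers it was the only one to pass, while their median difference was -0.015, and Slc25a42, a carrier of coenzyme A, stood at -0.22 ± 0.083 (adjusted p = 0.471). The study's other strain gave 0.34 for this gene (adjusted p = 0.478), and the difference between the responses, 0.97 ± 0.30, did not pass (adjusted p = 0.237).

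Rcan1 encodes regulator of calcineurin 1, an inhibitor of the calcium-activated phosphatase calcineurin that is itself induced by calcineurin and NFAT. It was read at 7.88, 7.80, 7.99, 7.90 and 8.16 with 2 kidneys and between 8.25 and 8.90 (median 8.62) with 1 kidney, with no overlap, and rose by 0.69 ± 0.10 log2 (SE; adjusted p = 0.00242). Replicate 4 was the lowest of the kidneys with 1. It was the only one of 10 genes of calcineurin signalling to pass, and their median was 0.0083. Nfatc1, a transcription factor that calcineurin activates, stood at -0.25 ± 0.075 (adjusted p = 0.254).

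Both Slc25a25 and Rcan1 hold the cyclic AMP response element TGACGTCA in the promoter window of RefSeq (GRCr8), which runs from 250 bases before to 50 after the annotated start. It is the palindromic site bound by CREB, and the reason for showing these windows. The windows below run to 30 bases after the start, 5′ to 3′ on the strand of the gene, with the element in capitals; it begins 158 bases before the start in Slc25a25 (chr3:36116552-36116831, minus strand) and 207 bases before it in Rcan1 (chr11:45118207-45118486, minus strand).
Slc25a25: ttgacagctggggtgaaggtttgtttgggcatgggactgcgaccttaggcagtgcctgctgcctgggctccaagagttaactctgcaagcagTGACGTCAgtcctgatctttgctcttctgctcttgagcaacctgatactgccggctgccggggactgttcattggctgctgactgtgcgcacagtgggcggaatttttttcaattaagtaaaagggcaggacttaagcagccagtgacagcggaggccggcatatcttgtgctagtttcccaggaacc
Rcan1: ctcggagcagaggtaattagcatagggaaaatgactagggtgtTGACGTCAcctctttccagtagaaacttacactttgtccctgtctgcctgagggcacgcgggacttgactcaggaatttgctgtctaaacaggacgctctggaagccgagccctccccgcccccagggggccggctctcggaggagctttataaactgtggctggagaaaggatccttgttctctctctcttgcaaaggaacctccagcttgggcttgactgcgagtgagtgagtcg
Windows were matched for 29 of the 36 genes, and these were the 2 that held TGACGTCA, which occurs in 1.83% of all 33469 windows. The AP-1 element TGACTCA (4.63% of all windows, either strand, and not overlapping the former in these letters) was in Rcan1 and Gnpda1. The 4 motifs given here were settled after the expression values and matches of other motifs had been seen, and a match is a description of letters only.

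Havcr1, known as Kim-1, is a phosphatidylserine receptor that is nearly absent from healthy proximal tubule and appears on injured cells, where it takes up debris. It was read at 3.93, 3.97, 3.80, 3.85 and 3.73 with 2 kidneys and between 4.19 and 5.92 (median 5.29) with 1 kidney. All arrays with 1 kidney lay above all with 2, replicate 4 being the lowest at 4.19, and the gene rose by 1.37 ± 0.25 log2 (SE; adjusted p = 0.0144), or 2.59-fold. The level with 2 kidneys, 3.86 ± 0.10 (SD, n = 5), was under the median probe set, at the dim end of the array.

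Injury genes beyond Havcr1 differed less. Of 23 measured genes of tubular injury and repair 1 passed (0.253% of all genes did), 10 were higher and 2 lower at an unadjusted p under 0.05 (4.56% and 3.8% of all genes), 15 lay above 0, and the median was 0.091, against 0.0046 for all genes. Spp1, which encodes osteopontin, was read at 10.16, 10.06, 10.10, 9.94 and 10.01 with 2 kidneys and between 10.28 and 10.75 (median 10.47) with 1 kidney, without overlap, and differed by 0.43 ± 0.10 log2 (SE; adjusted p = 0.0924). Fga, a fibrinogen chain that injured tubule also makes, stood at 0.52 ± 0.11 (adjusted p = 0.053) and C3, the central complement component, at 0.44 ± 0.11 (adjusted p = 0.129), neither past the threshold. The 2 genes counted as lower were Krt19 (-0.25) and Tff3 (-0.23), and neither passed. Other members lay near 0: Lcn2 stood at -0.023, Lgals3 at -0.0022 and Vcam1 at -0.0073. The mean of the list on each array was 6.52 to 6.60 with 2 kidneys and 6.68 to 6.82 with 1, with no overlap. In the same list 10 genes had a response that differed between the strains (0.408% of all genes did), among them Havcr1 and Spp1. Each of the 10 responses was less positive in SBN/y than in SBH/y.

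**Figure D2:**
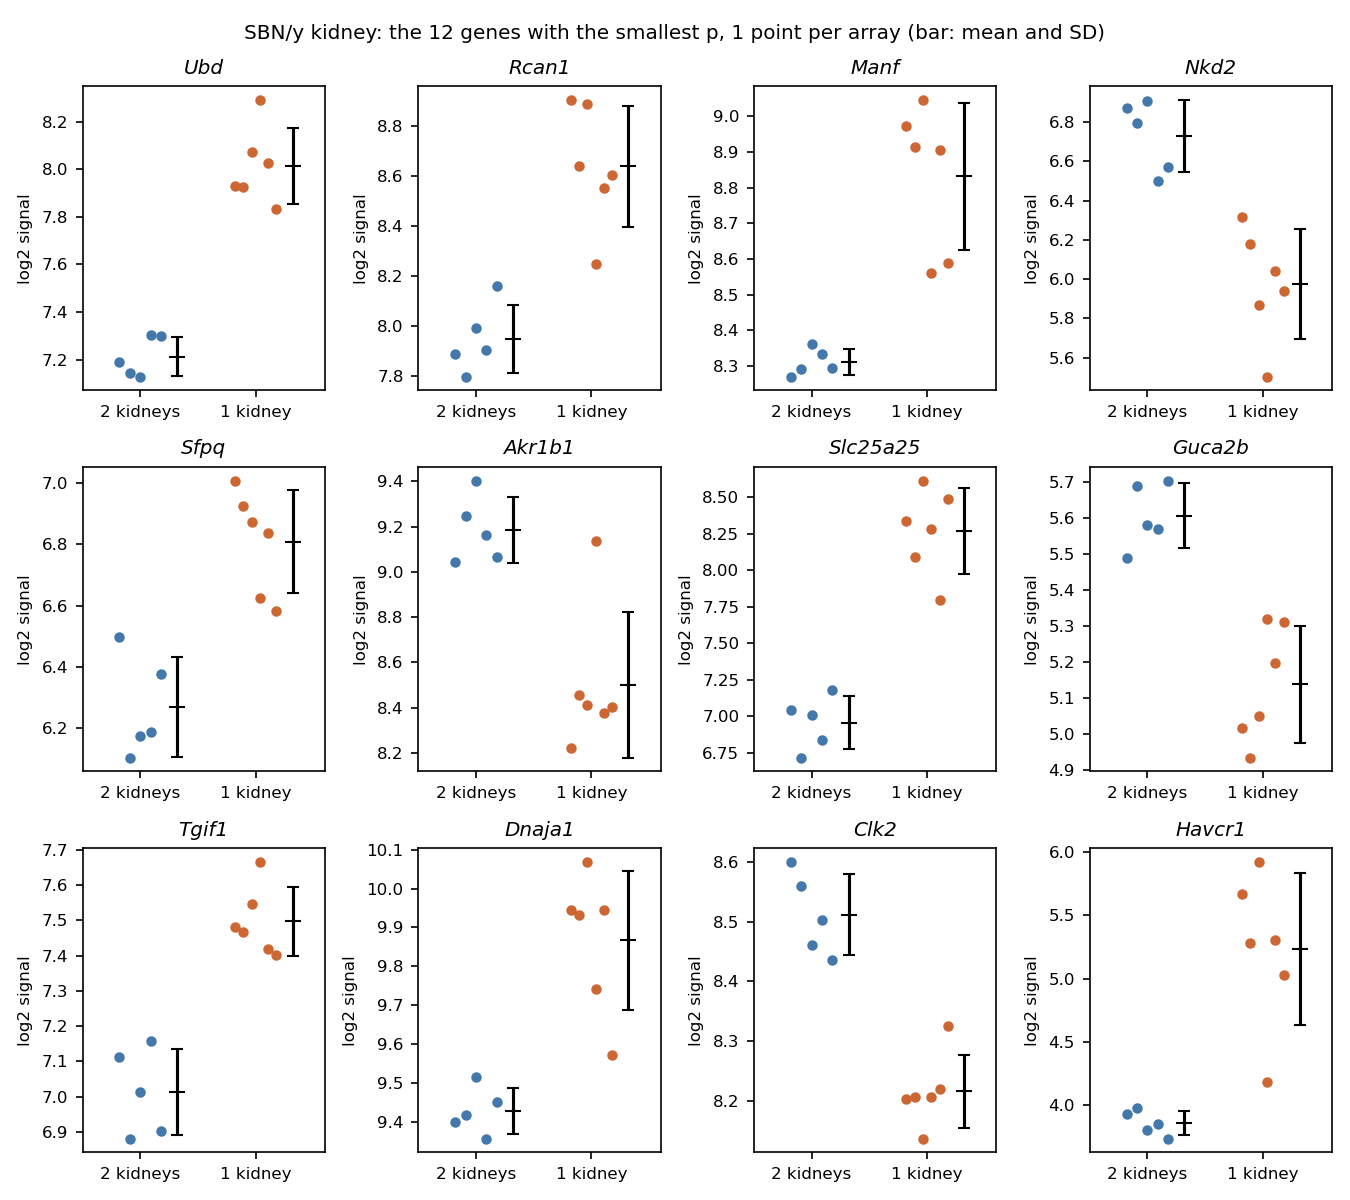
Log2 signal of the 12 genes with the smallest p, 1 point per array of SBN/y (5 with 2 kidneys, blue; 6 with 1, orange), with bars for mean and SD; vertical axes differ and do not start at 0. For 11 genes the groups part completely, whereas replicate 4 with 1 kidney lies among the controls for Akr1b1 (9.14) and is the lowest of its group for Havcr1 (4.19).

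Manf and Dnaja1, which act in protein folding, kept their calls whichever array was left out. Manf, a small protein that the endoplasmic reticulum secretes under stress, was read at 8.27, 8.29, 8.36, 8.33 and 8.29 with 2 kidneys and between 8.56 and 9.05 (median 8.91) with 1 kidney. It rose by 0.52 ± 0.080 log2 (SE; adjusted p = 0.00486), and the kidneys with 2 differed among themselves by less than 0.1 log2. Dnaja1, a cytosolic Hsp40 co-chaperone of Hsp70, was read at 9.40, 9.42, 9.52, 9.36 and 9.45 with 2 kidneys and between 9.57 and 10.07 (median 9.94) with 1 kidney, also without overlap, and rose by 0.44 ± 0.078 log2 (SE; adjusted p = 0.0144); its second probe set gave 0.34, which did not pass.

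Of 24 measured genes of endoplasmic reticulum stress 1 passed, which was Manf (0.253% of all genes passed). At an unadjusted p under 0.05, 8 were higher and 0 lower (4.56% and 3.8% of all genes). Above 0 lay 21, where 52.1% of all genes did. Hspa5, the chaperone BiP that holds the stress sensors inactive, was read at 9.80, 9.81, 9.95, 9.66 and 9.87 with 2 kidneys and between 9.77 and 10.51 (median 10.26) with 1 kidney. Only replicate 6 with 1 kidney, at 9.77, fell within the controls, and the difference was 0.40 ± 0.093 log2 (SE; adjusted p = 0.0835). Ddit3, the stress-induced factor CHOP, stood at 0.32 ± 0.071 (adjusted p = 0.0548), and Xbp1, whose spliced form drives chaperone genes, at 0.18 ± 0.062 (adjusted p = 0.373). The list's median was 0.10 and its mean ran from 7.71 to 7.84 with 2 kidneys and from 7.80 to 8.03 with 1, so the groups overlapped.

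Of 13 cytosolic heat shock genes 1 passed, which was Dnaja1 (0.253% of all genes passed), and the median was 0.14. At an unadjusted p under 0.05, 6 were higher and 1 lower (4.56% and 3.8% of all genes). Above 0 lay 12, where 52.1% of all genes did. Chordc1, a co-chaperone of Hsp90, differed by 0.45 ± 0.10 log2 (SE; adjusted p = 0.0762), Dnajb1, the classical Hsp40, by 0.29 ± 0.091 (adjusted p = 0.28) and Hsp90ab1, the constitutive Hsp90, by 0.19 ± 0.064 (adjusted p = 0.346). Levels of the list were 8.62 to 8.74 with 2 kidneys and 8.66 to 8.97 with 1. In both chaperone lists replicate 3 was highest and replicate 6 lowest of the kidneys with 1.

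Some promoters of the chaperone genes carry the elements for which the heat shock response and the unfolded protein response are known. Dnaja1 and Hspa5 are shown as an example of each. In Dnaja1 (chr5:60638154-60638433, plus strand) the capitals mark a heat shock element, GAA, TTC and GAA spaced by any 2 bases, which begins at base 10 after the start. In Hspa5 (chr3:38452766-38453045, plus strand) they mark an endoplasmic reticulum stress element, CCAAT and CCACG spaced by any 9 bases, which begins 43 bases before the start; both windows are from RefSeq (GRCr8).
Dnaja1: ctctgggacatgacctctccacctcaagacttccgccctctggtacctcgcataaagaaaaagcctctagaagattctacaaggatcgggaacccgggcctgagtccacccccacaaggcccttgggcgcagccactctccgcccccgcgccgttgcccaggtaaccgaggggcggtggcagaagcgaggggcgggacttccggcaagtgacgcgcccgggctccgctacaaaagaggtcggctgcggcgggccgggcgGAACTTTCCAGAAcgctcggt
Hspa5: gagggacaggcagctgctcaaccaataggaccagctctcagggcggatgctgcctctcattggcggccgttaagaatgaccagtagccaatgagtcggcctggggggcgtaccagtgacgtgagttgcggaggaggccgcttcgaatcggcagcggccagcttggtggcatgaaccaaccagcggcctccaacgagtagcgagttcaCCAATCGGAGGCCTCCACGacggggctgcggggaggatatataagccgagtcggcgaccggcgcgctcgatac
Of 33 genes of the chaperone lists with a window, 7 held the second element on either strand (Calr, Canx, Creld2, Dnajc3, Hsp90b1, Hspa5 and Xbp1), against 0.0657% of all windows, and 5 held the first (Chordc1, Dnaja1, Hspd1, Hspe1 and Hsph1), against 0.798%. Among the 29 matched genes that passed, 1 held the heat shock element, Dnaja1, and 0 held the other. These lists were named for such regulation, so the shares describe the lists and not the response.

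Genes that cells switch on within minutes of a stimulus formed the list with the highest median. Of 30 measured immediate early and early response genes 1 passed (0.253% of all genes did), and the median was 0.17. At an unadjusted p under 0.05, 14 were higher and 0 lower (4.56% and 3.8% of all genes). Above 0 lay 23, where 52.1% of all genes did. Jun, a subunit of AP-1, was read at 7.38, 7.09, 7.30, 7.24 and 7.20 with 2 kidneys and between 7.48 and 8.22 (median 7.69) with 1 kidney and rose by 0.53 ± 0.11 log2 (SE; adjusted p = 0.0467), with a call count of 2. Egr1, a zinc finger factor induced by growth factors, was read at 5.41, 5.11, 5.71, 5.61 and 5.61 with 2 kidneys and between 5.90 and 7.04 (median 6.11) with 1 kidney; its groups did not overlap, replicate 3 was highest at 7.04, and the difference was 0.74 ± 0.17 log2 (SE; adjusted p = 0.0734). Zfp36, which destabilises inflammatory mRNA, stood at 0.27 ± 0.066 (adjusted p = 0.104) and Dusp6, a phosphatase of ERK, at 0.49 ± 0.13 (adjusted p = 0.163). The Fos genes of the list did not rise: Fos stood at -0.0066, Fosb at -0.037, Fosl1 at -0.055 and Fosl2 at -0.023. The list mean separated the groups, 5.75 to 5.81 against 5.91 to 5.99, and 10 of its 30 genes were under the median probe set. Outside the list, Errfi1, an inhibitor of the EGF receptor that growth factors induce, had the largest difference among the 30 genes next in rank below the threshold, 0.85 ± 0.18 log2 (SE; adjusted p = 0.053).

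Cdkn1a, the cell cycle inhibitor p21, was read at 6.35, 6.02, 6.13, 6.13 and 6.36 with 2 kidneys and between 6.44 and 6.71 (median 6.56) with 1 kidney and rose by 0.36 ± 0.075 log2 (SE; adjusted p = 0.0373), with a call count of 3. It was the only one of 25 cell cycle genes to pass; 3 were higher and 1 lower at an unadjusted p under 0.05, the median was 0.014, and 15 of the 25 were under the median probe set. Mcm3 and Ccnb2, which serve DNA replication and mitosis, stood at 0.29 ± 0.10 and 0.30 ± 0.10, neither past the threshold. Hmox1, the inducible heme oxygenase, was read at 4.01, 3.62, 4.13, 4.11 and 3.97 with 2 kidneys and between 4.35 and 4.82 (median 4.50) with 1 kidney and rose by 0.56 ± 0.11 log2 (SE; adjusted p = 0.0176), from a level under the median probe set and with a call lost without replicate 1 or 3 with 1 kidney or replicate 2 with 2, and also with the GAPDH covariate (adjusted p = 0.0681). Over the 14 heme and Nrf2 genes the median was 0.018 and 1 passed, which was Hmox1; Sqstm1, the autophagy receptor p62, stood at 0.12 ± 0.044 (adjusted p = 0.407). Tsc22d1, a leucine zipper protein first found as a TGF-beta-induced gene, rose by 0.42 ± 0.085 log2 (SE; adjusted p = 0.0345) with a call count of 2, but its second probe set gave -0.027.

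Akr1b1 and Slc6a6, which supply osmolytes of the medulla, fell. Akr1b1 encodes aldose reductase, which makes sorbitol, an osmolyte of the inner medulla, from glucose. It was read at 9.05, 9.24, 9.40, 9.16 and 9.07 with 2 kidneys and between 8.22 and 9.14 (median 8.41) with 1 kidney and fell by 0.68 ± 0.11 log2 (SE; adjusted p = 0.00699). Of the kidneys with 1, 5 lay between 8.22 and 8.46 and replicate 4 lay at 9.14, within the controls. Slc6a6, the taurine transporter, another osmolyte gene, was read at 8.58, 8.66, 8.98, 8.71 and 8.83 with 2 kidneys and between 8.07 and 8.64 (median 8.34) with 1 kidney and fell by 0.42 ± 0.085 log2 (SE; adjusted p = 0.0339), again with replicate 4 highest and with a call count of 2. These were the 2 of 9 osmolyte and urea genes that passed; Sord, which turns sorbitol into fructose, stood at 0.15 ± 0.053 (adjusted p = 0.378), and the median was -0.052.

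Guca2b, uroguanylin, a peptide by which gut and kidney promote salt excretion, was read at 5.49, 5.69, 5.58, 5.57 and 5.70 with 2 kidneys and between 4.93 and 5.32 (median 5.12) with 1 kidney. The groups were apart, and it fell by 0.47 ± 0.078 log2 (SE; adjusted p = 0.00699). It was 1 of 10 genes of the guanylin and natriuretic peptide list, whose median was -0.0045. Npr1, the receptor of atrial natriuretic peptide, stood at -0.16 ± 0.067 (adjusted p = 0.53).

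Of 14 principal cell markers 0 passed (0.253% of all genes did), and the median was -0.14. At an unadjusted p under 0.05, 0 were higher and 5 lower (4.56% and 3.8% of all genes). Below 0 lay 12, where 6815 of all 14217 genes did. Fxyd4, a modulator of the sodium pump in collecting duct, was read at 8.08, 8.07, 8.28, 8.17 and 8.15 with 2 kidneys and between 7.58 and 8.04 (median 7.74) with 1 kidney, without overlap, and differed by -0.41 ± 0.11 log2 (SE; adjusted p = 0.151). Avpr2, the vasopressin receptor, stood at -0.28 ± 0.080, Aqp2, the vasopressin-regulated water channel, at -0.37 ± 0.12 and Elf5, a principal cell factor, at -0.18 ± 0.062, with adjusted p between 0.228 and 0.392. Levels of the list were 7.45 to 7.59 with 2 kidneys and 7.30 to 7.48 with 1, and replicate 4, at 7.48, was the one that overlapped. In whole-kidney RNA fewer cells of a type and less RNA per cell cannot be told apart. Among 11 intercalated cell markers 9 lay below 0 with a median of -0.047, and 2, Rhcg, an ammonia transporter (-0.16 ± 0.060), and Kit (-0.22 ± 0.084), were lower at an unadjusted p under 0.05. Earlier nephron segments gave medians nearer 0 than those of principal cells: -0.042 for 15 genes of thick limb and distal tubule and 0.020 for 19 of proximal tubule transport, with 0 passed in either list. Stk39, the kinase SPAK that activates sodium chloride cotransport, stood at -0.16 ± 0.065 in the former, and Slc13a1, the sodium sulfate cotransporter, at 0.25 ± 0.066 in the latter, neither past the threshold. How much cortex and medulla each sample held is not given, and its part in these differences was not tested.

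Wnt and BMP signalling held 3 of the genes that passed. Of 30 measured, 2 fell and 1 rose, 17 lay below 0, 10 were lower and 1 higher at an unadjusted p under 0.05 (3.8% and 4.56% of all genes), and 6 had groups that did not overlap (1.65% of all genes), with a median of -0.070. Nkd2, an antagonist of Wnt signalling that binds Dishevelled, was read at 6.87, 6.80, 6.91, 6.50 and 6.57 with 2 kidneys and between 5.50 and 6.32 (median 5.99) with 1 kidney, without overlap, and fell by 0.75 ± 0.12 log2 (SE; adjusted p = 0.00491). Bmp4, a growth factor of the TGF-beta family, was read at 7.69, 7.67, 7.78, 7.52 and 7.64 with 2 kidneys and between 7.29 and 7.47 (median 7.36) with 1 kidney and fell by 0.30 ± 0.060 log2 (SE; adjusted p = 0.0296), with a call count of 5. Tgif1, a homeodomain repressor of TGF-beta and SMAD transcription, was the one that rose, from 7.11, 6.88, 7.01, 7.16 and 6.90 with 2 kidneys and between 7.40 and 7.67 (median 7.47) with 1 kidney, by 0.48 ± 0.083 log2 (SE; adjusted p = 0.00935). Id4, a BMP-induced inhibitor of helix-loop-helix factors, stood at -0.30 ± 0.077 (adjusted p = 0.141), with groups apart. List means were 6.79 to 6.91 with 2 kidneys and 6.67 to 6.81 with 1, so they overlapped.

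Prox1, the homeobox factor of lymphatic endothelium, was read at 5.52, 5.44, 5.51, 5.43 and 5.31 with 2 kidneys and between 4.98 and 5.28 (median 5.05) with 1 kidney and fell by 0.35 ± 0.066 log2 (SE; adjusted p = 0.0176), with a call count of 6 and 0.051 at a second probe set. Dgkg, a kinase that removes diacylglycerol, fell by 0.33 ± 0.069 log2 (SE; adjusted p = 0.0412) with a call count of 2. Eps8l2, of the EPS8 family that links to actin, fell by 0.27 ± 0.051 log2 (SE; adjusted p = 0.0164), a call lost without replicate 2 or 4 with 2 kidneys or with the GAPDH covariate (adjusted p = 0.0734), and Herc3, a ubiquitin ligase, by 0.42 ± 0.077 log2 (SE; adjusted p = 0.0144), lost without replicate 1, 3 or 4 of the same group. Pamr1, which encodes a secreted protein, was read at 7.56, 7.34, 7.46, 7.29 and 7.40 with 2 kidneys and between 6.75 and 7.11 (median 6.96) with 1 kidney and fell by 0.46 ± 0.084 log2 (SE; adjusted p = 0.0144), lost without replicate 1 or 3 with 2 kidneys. Spp2, a secreted phosphoprotein, fell by 0.39 ± 0.074 log2 (SE; adjusted p = 0.0176), lost without replicate 2, 3 or 5 with 2 kidneys, and the zinc finger gene Zfp658l1, at a level under the median probe set, by 0.32 ± 0.067 log2 (SE; adjusted p = 0.0394) with a call count of 3.

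Of 23 measured splicing genes 1 rose, Sfpq, and 1 fell, Srsf5 (0.155% and 0.0985% of all genes did). At an unadjusted p under 0.05, 3 were higher and 2 lower (4.56% and 3.8% of all genes). Sfpq, a nuclear protein of paraspeckles that acts in splicing and DNA repair, was read at 6.50, 6.10, 6.18, 6.19 and 6.38 with 2 kidneys and between 6.58 and 7.01 (median 6.86) with 1 kidney, without overlap, and rose by 0.54 ± 0.086 log2 (SE; adjusted p = 0.00565). Outside the list, Rbm14, another paraspeckle protein, rose by 0.35 ± 0.074 log2 (SE; adjusted p = 0.0413), with a call count of 3. Clk2, also outside it, a kinase that releases splicing factors from nuclear speckles, was read at 8.60, 8.56, 8.46, 8.50 and 8.44 with 2 kidneys and between 8.14 and 8.33 (median 8.21) with 1 kidney and fell by 0.30 ± 0.053 log2 (SE; adjusted p = 0.0144), a call lost without replicate 1 with 2 kidneys. Srsf5, a serine- and arginine-rich splicing factor, fell by 0.34 ± 0.072 log2 (SE; adjusted p = 0.043), with overlap and a call count of 2. Over the list the median was -0.026 and 14 lay below 0. Hnrnpd stood at -0.36 ± 0.094 and Tra2b at 0.21 ± 0.066, neither past the threshold.

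Immune genes leaned upwards with 1 kidney, and replicate 4 was highest among several of them. Ubd encodes FAT10, a ubiquitin-like modifier induced by interferon gamma and tumour necrosis factor. It was read at 7.19, 7.14, 7.13, 7.30 and 7.30 with 2 kidneys and between 7.83 and 8.29 (median 7.98) with 1 kidney, without overlap, and rose by 0.80 ± 0.10 log2 (SE; adjusted p = 0.000543), the smallest p of all named genes. Apoe, a lipid carrier made by macrophages among other cells, was read at 9.54, 9.43, 9.67, 9.59 and 9.71 with 2 kidneys and between 9.78 and 10.39 (median 9.94) with 1 kidney and rose by 0.42 ± 0.086 log2 (SE; adjusted p = 0.0373), with a call count of 5. Replicate 4 was the highest array for both, at 8.29 and 10.39.

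Of 19 myeloid markers 0 passed, and the median was 0.15. At an unadjusted p under 0.05, 5 were higher and 1 lower (4.56% and 3.8% of all genes). Above 0 lay 18, where 52.1% of all genes did. Gpnmb, a glycoprotein of activated macrophages, was read at 4.79, 4.62, 4.70, 4.62 and 4.34 with 2 kidneys and between 4.97 and 5.35 (median 5.04) with 1 kidney, without overlap, and differed by 0.49 ± 0.15 log2 (SE; adjusted p = 0.239). Fcer1g, the common gamma chain of Fc receptors, stood at 0.23 ± 0.076, Lyz2, lysozyme, at 0.22 ± 0.084 and Mrc1, the mannose receptor, at 0.36 ± 0.14. For Mrc1, replicate 4 was the lowest of the kidneys with 1, at 3.92. The only marker below 0, which is also the 1 counted as lower, stood at -0.37. The list mean was 5.92 to 5.98 with 2 kidneys, 6.02 to 6.11 in 5 kidneys with 1, and 6.36 in replicate 4, so the groups were apart with or without that array. Of 14 antigen presentation genes 13 lay above 0, with a median of 0.12. At an unadjusted p under 0.05, 4 were higher (4.56% of all genes). Tap1, a peptide transporter, stood at 0.28 ± 0.092, and its second probe set at -0.15. Psmb8, an immunoproteasome subunit, stood at 0.26 ± 0.089. RT1-Db1 and RT1-Da, chains of MHC class II, stood at 0.29 ± 0.091 and 0.24 ± 0.090. Replicate 4 again led with a list mean of 7.58, against at most 7.31 in the others. The groups overlapped, with list means of 7.12 to 7.17 with 2 kidneys and 7.14 to 7.58 with 1. Among 16 interferon response genes Ubd alone passed and the median was 0.048, with Cxcl10, a chemokine that draws T cells, at 0.27 ± 0.13. Means of the interferon list overlapped, 5.25 to 5.41 with 2 kidneys and 5.34 to 5.68 with 1. Among 15 lymphocyte markers 0 passed, the median was 0.035 and 9 were under the median probe set. Their list means overlapped as well, 4.12 to 4.24 with 2 kidneys and 4.18 to 4.30 with 1.

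Matrix genes leaned upwards with 1 call. Of 31 measured, 23 lay above 0 (52.1% of all genes did), and the median was 0.069. At an unadjusted p under 0.05, 6 were higher and 1 lower (4.56% and 3.8% of all genes). The matrix list means overlapped, 6.48 to 6.53 with 2 kidneys and 6.50 to 6.73 with 1. Replicate 4 with 1 kidney was highest, while replicates 3 and 6, at 6.50 and 6.51, lay within the controls. P4ha1, a prolyl hydroxylase that matures collagen, was read at 7.15, 7.30, 7.35, 7.00 and 7.14 with 2 kidneys and between 7.31 and 7.86 (median 7.71) with 1 kidney and rose by 0.46 ± 0.094 log2 (SE; adjusted p = 0.0302), with a call count of 4. Col3a1, the fibrillar collagen of type III, stood at 0.21 ± 0.091 (adjusted p = 0.561). Endothelial markers leaned the other way: 13 of 14 lay below 0, and the median was -0.049. Over all genes, 6815 of 14217 lay below 0. At an unadjusted p under 0.05, 3 of the markers were lower and 1 higher (3.8% and 4.56% of all genes). Emcn, a sialoglycoprotein of capillaries, was read at 9.02, 9.02, 9.17, 9.13 and 9.08 with 2 kidneys and between 8.77 and 8.99 (median 8.88) with 1 kidney and differed by -0.20 ± 0.050 log2 (SE; adjusted p = 0.113), and Cldn5, a tight junction protein of endothelium, by -0.25 ± 0.058 log2 (SE; adjusted p = 0.0868). Although small, the shift left the list means apart, 6.95 to 6.98 with 2 kidneys against 6.88 to 6.91 with 1. Podocyte markers had a median of -0.032 and pericyte and smooth muscle markers one of 0.0022, with 0 passed in either. Synpo, an actin-binding protein of foot processes, stood at -0.17 ± 0.059 and Tagln, an actin-binding protein of smooth muscle, at 0.32 ± 0.12.

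**Figure D3:**
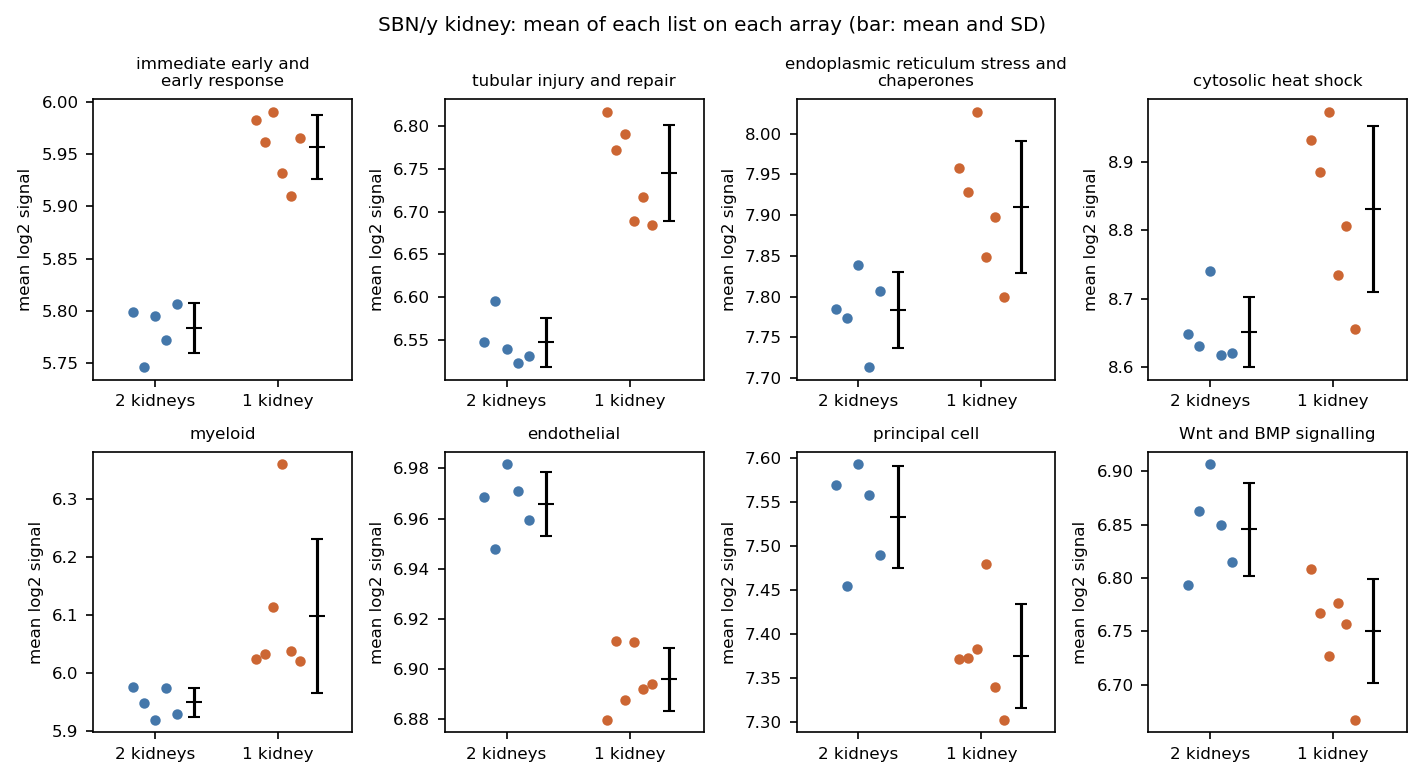
Mean log2 signal of the genes of 8 lists on each array of SBN/y (5 with 2 kidneys, blue; 6 with 1, orange; bars are mean and SD; vertical axes differ and do not start at 0). The groups are apart for early response, tubular injury, myeloid and endothelial genes and overlap for the others, and replicate 4 stands alone among myeloid means at 6.36.

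Among membrane transport and metabolism, Slc2a2, the glucose transporter GLUT2 by which proximal tubule returns glucose to the blood, was read at 8.36, 8.05, 8.28, 8.46 and 8.39 with 2 kidneys and between 8.50 and 8.96 (median 8.79) with 1 kidney. It rose by 0.45 ± 0.086 log2 (SE; adjusted p = 0.0176), a call lost without replicate 1 or 3 with 1 kidney or 2 or 3 with 2, and also with the GAPDH covariate (adjusted p = 0.0799). Slc28a2, a sodium-coupled purine nucleoside transporter, rose by 0.43 ± 0.091 log2 (SE; adjusted p = 0.043) with a call count of 2; replicate 4, at 5.73, was far above the other 5, at 5.24 to 5.35. Pdp2, a phosphatase that activates pyruvate dehydrogenase, rose by 0.30 ± 0.063 log2 (SE; adjusted p = 0.0412) and kept its call in 1 of the 11 leave-one-out fits. Gnpda1, glucosamine-6-phosphate deaminase, rose by 0.28 ± 0.055 log2 (SE; adjusted p = 0.029) with a call count of 3. Cys1, cystin, a protein of the primary cilium, was read at 7.29, 7.32, 7.36, 7.08 and 7.30 with 2 kidneys and between 7.63 and 8.30 (median 7.80) with 1 kidney and rose by 0.59 ± 0.12 log2 (SE; adjusted p = 0.0268) with a call count of 3. Tmem252, a membrane protein, rose by 0.57 ± 0.11 log2 (SE; adjusted p = 0.0176), lost without replicate 3 or 4 with 2 kidneys or with the replicate number as a block, and Mmd, first described in maturing macrophages, by 0.44 ± 0.089 log2 (SE; adjusted p = 0.0302) with a call count of 3.

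The lists that follow, of metabolism, hormones, growth and the clock, had 0 genes past the threshold. Oxidative phosphorylation had 0 of 30 genes past the threshold, 0 at an unadjusted p under 0.05 and a median of 0.0017, with every member within 0.1 log2 of 0. Gluconeogenesis and ammonia production (9 genes, median 0.017), the renin-angiotensin system (10 genes, median -0.0085) and Klotho and mineral handling (9 genes, median -0.073) had 0 genes at an unadjusted p under 0.05 as well. Compensatory growth genes, 29 in number, had a median of -0.0038 with 0 passed and 2 higher and 3 lower at an unadjusted p under 0.05. Higher were Igfbp6, an IGF-binding protein (0.24 ± 0.093), and Fgf1, a fibroblast growth factor (0.14 ± 0.053). Among the lower were Igfbp5 (-0.21 ± 0.056) and Igf1 (-0.19 ± 0.076). Ribosomal and ribosome assembly genes lay above 0 in 21 of 24 cases with a median of 0.047, 0 passed and 2 higher at an unadjusted p under 0.05. Fatty acid oxidation (19 genes), xenobiotic metabolism (19), hypoxia and glycolysis (19) and the circadian clock (17) had medians between -0.022 and 0.021 and 0 passed. Cyp1a1, a P450 induced by aryl hydrocarbons, stood at -0.59 ± 0.22, and Slc2a1, the glucose transporter GLUT1, at -0.21 ± 0.067, neither past the threshold. At an unadjusted p under 0.05, fatty acid oxidation had 1 gene higher, xenobiotic metabolism 2 higher and 1 lower, and hypoxia and glycolysis 1 higher and 2 lower. In the clock list 4 of 17 genes were higher and 3 lower at that level, beside 4.56% and 3.8% of all genes. Among them Nfil3, a repressor of clock output, stood at 0.35 ± 0.11, Per1 at 0.20 ± 0.075 and Bhlhe41 at 0.38 ± 0.15, and Hlf, an activator of clock output, at -0.40 ± 0.13. The time of day of sampling is not given in the sources used here. Nr1d1, a repressor of the core clock, named after its values were seen, stood at 0.21 in SBN/y, and its response was more positive than in SBH/y by 1.12 (adjusted p = 0.0389 with limma). A p that misses the threshold does not show that these genes were equal in the groups.

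Lipid and cholesterol synthesis leaned downwards, with 15 of 16 genes below 0, 0 passed and a median of -0.11. At an unadjusted p under 0.05, 3 were lower (3.8% of all genes). Scd, the desaturase of fatty acid synthesis, was read at 5.41, 7.19, 8.06, 7.32 and 7.77 with 2 kidneys and between 4.95 and 7.22 (median 6.42) with 1 kidney, and the groups overlapped widely (-0.95 ± 0.40; adjusted p = 0.55). Idi1 and Cyp51, enzymes of cholesterol synthesis, stood at -0.30 ± 0.14 and -0.26 ± 0.12, and replicate 4 was lowest for both. Of 8 fat tissue markers 0 passed, 1 was lower at an unadjusted p under 0.05 and 7 lay below 0, with a median of -0.17. The list mean was 5.30 to 6.15 with 2 kidneys and 5.35 to 5.88 with 1, so the groups overlapped, and its part in the lipid genes was not tested.

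**Figure D4:**
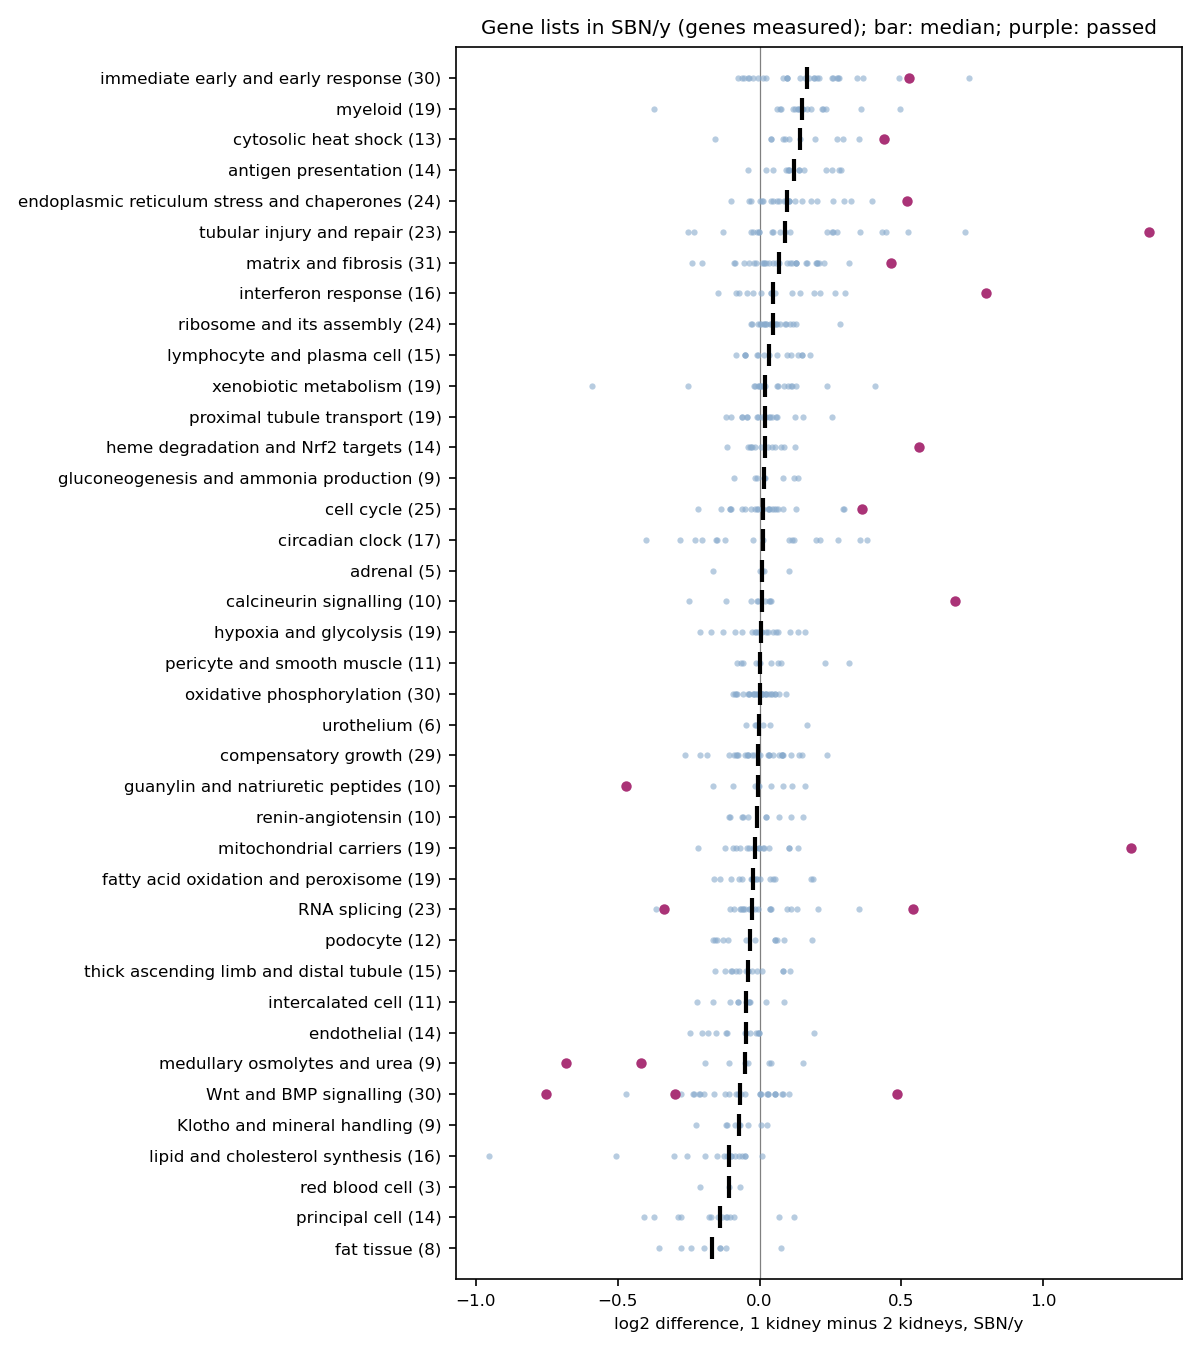
Log2 differences between SBN/y kidneys with 1 and with 2 for each measured gene of the 39 lists (number of genes in brackets), ordered by their median (black bar); purple points passed. Medians run from -0.17 for fat tissue to 0.17 for early response genes, and the largest single points belong to Havcr1 and Slc25a25.

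The 15 genes of each direction next in rank had adjusted p between 0.0530 and 0.104 and are given as values. Higher with 1 kidney were Fga, a fibrinogen chain (0.52), Errfi1 (0.85), Ddit3 (0.32), Clec10a, a lectin of macrophages (0.47), Dpp7 (0.27), Egr1 (0.74), Pm20d2 (0.32), Klhl25 (0.32), Chordc1 (0.45), Hspa5 (0.40), Spp1 (0.43), Filip1l (0.44), Dusp9 (0.43), Zfp36 (0.27) and Mlxipl, the glucose-responsive factor ChREBP (0.25). Among these 15, 5 belong to the early response or chaperone lists: Ddit3, Egr1, Chordc1, Hspa5 and Zfp36. The early response, endoplasmic reticulum stress and cytosolic heat shock lists held 30, 24 and 13 of the 14217 genes. They were chosen with earlier results of these data known, so the count describes the ranking only. Lower were Dock8 (-0.24), Mcf2l (-0.31), Rbbp6 (-0.29), Sphk1, sphingosine kinase (-0.31), Cldn5 (-0.25), Mlana (-0.47), Bicdl1 (-0.34), Phf20l1 (-0.31), Ccdc9b (-0.28), Gal3st1, which makes sulfatide (-0.28), Kcnq1, a potassium channel (-0.27), Cacng5 (-0.49), Slc22a17 (-0.20), Pard3, a polarity protein (-0.44), and Gpha2 (-0.34). In 8 of the 15 higher and 10 of the 15 lower genes the groups did not overlap, against 1.65% of all genes. They were ranked by p, which favours groups that do not overlap, so the count adds nothing to the rank.

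The other 16 probe sets that passed were 11 without a gene symbol, 1 with several and 4 that were not the brightest of their gene. Of the last, 2 were of Rimbp2 (-0.62 and -0.49), whose brightest probe set gave -0.42 and did not pass, and 1 each of Chd6 (-0.63) and Hoxc4 (-0.39). Of the 36 genes, 12 had a second probe set; 10 of these had the same sign and 0 passed, Prox1 and Tsc22d1 being the 2 with the opposite sign.

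Set beside SBH/y, the genes that passed in SBN/y mostly moved the same way. Uninephrectomy in SBH/y changed 1018 of the 14217 genes (7.16%). The share of all genes with the same sign in both strains is not given here. Of the 36 genes, 35 had the same sign in SBH/y, Dgkg (0.024 in SBH/y) being the exception, and 23 passed there as well. The difference was larger in SBN/y, where the genes were picked, for 26 and larger in SBH/y for 10. The difference between the responses was tested for every gene and passed for 58 of 14217 (0.408%; 0.254% of probe sets), but for 1 of these 36, which was Havcr1. In SBH/y it was read at 4.21 ± 0.29 (SD, n = 6) with 2 kidneys and 7.42 ± 0.63 (SD, n = 6) with 1, a rise of 3.20, so that the SBN/y response was smaller by 1.83 ± 0.34 log2 (SE; adjusted p = 0.011).

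No named gene that rose or fell in SBN/y was therefore shown to change in this strain more than in SBH/y. The nearest by size were Slc25a25, described above, and Errfi1, which differed by 0.043 in SBH/y, giving a difference between the responses of 0.81 ± 0.26 (adjusted p = 0.256). Dgkg stood at 0.024 in SBH/y, Nkd2 at -0.26, Slc28a2 at 0.0074, Slc6a6 at -0.14 and Dnaja1 at 0.15. Their differences between the responses did not pass (adjusted p between 0.138 and 0.516). A single probe set without a gene symbol did, chosen after its values were seen: it rose by 0.43 in SBN/y, stood at -0.13 in SBH/y and differed by 0.56 ± 0.11 (SE; adjusted p = 0.0141).

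List medians in the strains were also set side by side. For tubular injury the median was 0.091 in SBN/y and 0.47 in SBH/y, for myeloid markers 0.15 and 0.50, for matrix 0.069 and 0.33 and for antigen presentation 0.12 and 0.42. For early response genes they were 0.17 and 0.13, for endoplasmic reticulum stress 0.10 and 0.14 and for cytosolic heat shock 0.14 and 0.15, and 0 genes of these 3 lists passed the test of a difference between the strains. Principal cell markers stood at -0.14 and -0.22, Wnt and BMP genes at -0.070 and -0.0041 and lipid synthesis at -0.11 and -0.0026.

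**Figure D5:**
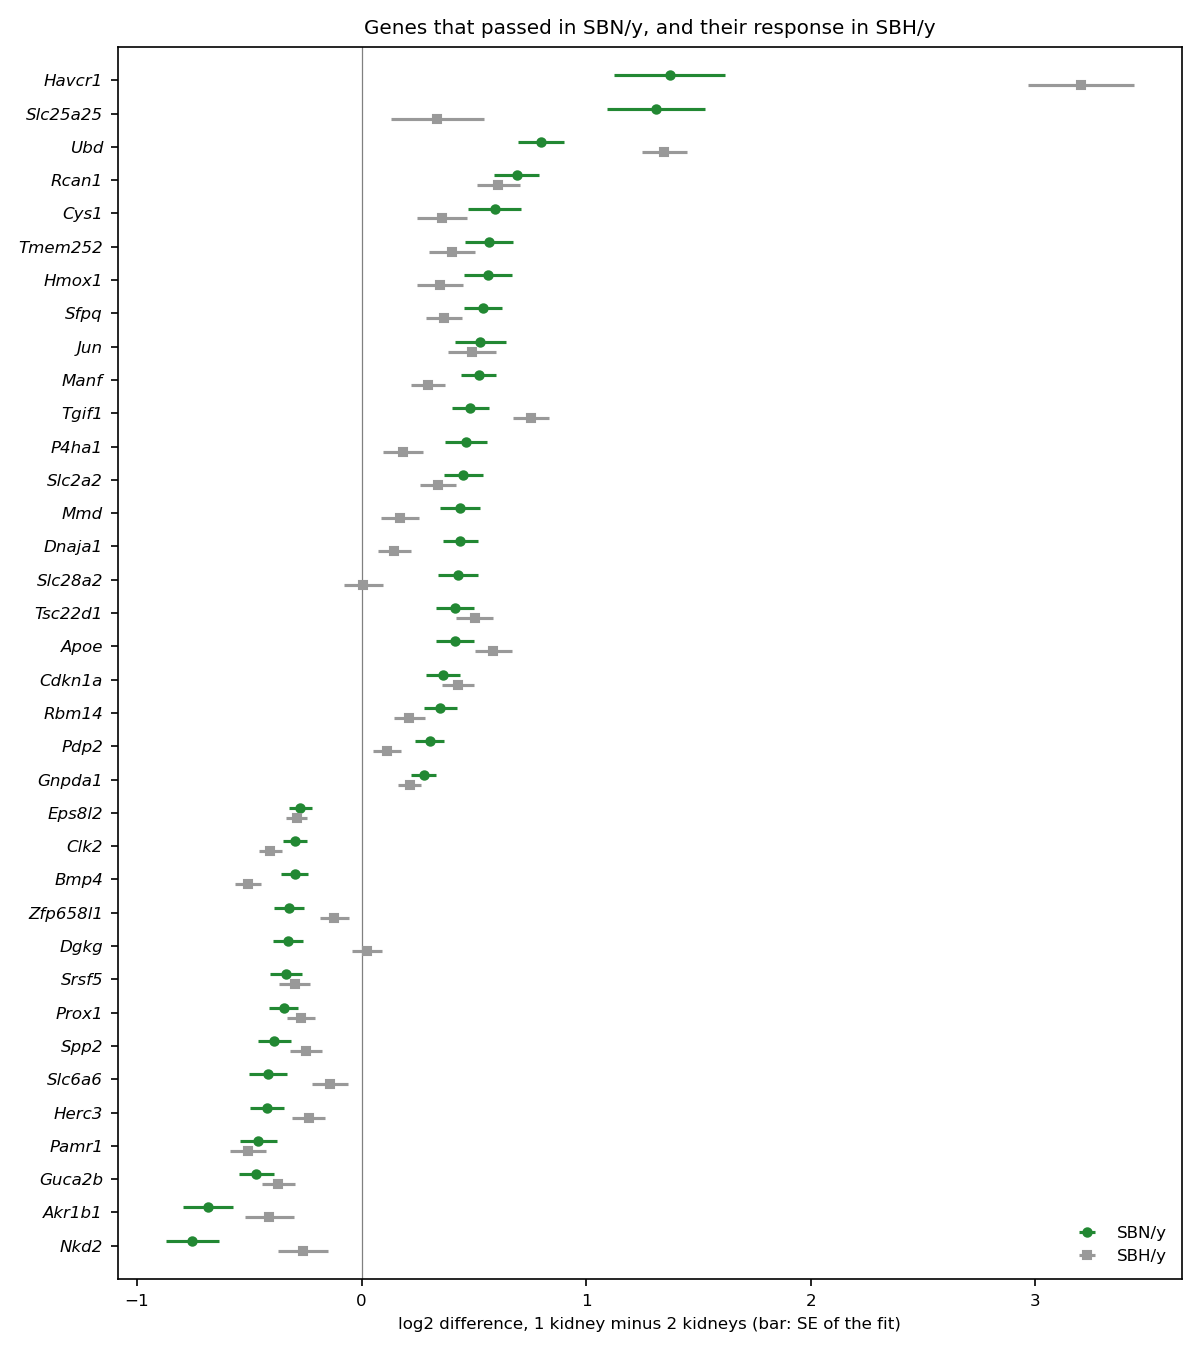
Log2 differences between kidneys with 1 and with 2 for the 36 genes that passed in SBN/y (green circles), beside the same in SBH/y (grey squares); bars are the SE of the fit. The points share a sign for all but Dgkg, and those of Havcr1 are farthest apart, at 1.37 and 3.20.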

How the data were processed

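Each kidney RNA sample was read on 1 Affymetrix array. The authors deposited log2 values, 1 per probe set and array; GCOS and RMA are the tools named in the submitters' processing notes, without versions, and scan dates are not given in the sources used here. RMA quantile-normalizes arrays, so a change in total mRNA cannot be seen, and it compresses differences of dim probe sets. Of 31099 probe sets, 57 controls were left out. An annotation table gave 1 symbol for 20826, several for 436 and none for 9780; 20758 matched RefSeq (GRCr8). A gene was read at its probe set with the highest mean, which gave 14217 genes. 1 limma fit (limma 3.58.1, R 4.3.3) over 23 arrays held a mean for each of 4 groups. Tests were two-sided with Benjamini-Hochberg adjustment over 31042 probe sets and a threshold of 0.05, and the number of arrays limits the precision. The fit was tested on simulated data. The 39 lists held 721 entries, 644 of them measured, some in several lists.

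The strain, the genes and the lists were chosen with earlier results of these data known. Named are genes that passed, the next 15 in each direction and up to 4 of each list with the smallest p, narrowed after values were seen to those with an unadjusted p under 0.05. Probe sets that were not the brightest of a gene, or had no symbol, were named after their values were seen. So were further members of the tubular injury and early response lists that were lower or near 0. These members are not among the 134 named genes examined for outlying arrays. Promoter windows were printed as RefSeq gives them, shortened by their last bases. Alternatives were other samples in the fit, normalizations, filters, variance models and probe sets, array weights, a GAPDH covariate, a replicate block and leaving out each array.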

Additional observations from a re-analysis of the deposited data

Results flagged for a closer look

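Of 350 groups of 5 or 6 arrays examined (134 named genes, 39 list means, the GAPDH measure and the first principal component), 19 held an array far from the others. Chance gives about 1 in 20, and 8 of the 19 were replicate 4 with 1 kidney. In that array Akr1b1 was read at 9.14, next to 8.46, Slc28a2 at 5.73, next to 5.35, Fcer1g at 8.84, next to 8.47, Igfbp6 at 6.49, next to 6.21, and Cyp51, where it was the lowest array, at 6.85, next to 7.29. Its list means were 6.36 for myeloid markers, next to 6.11, 7.22 for intercalated cells, next to 7.13, and 8.89 for fatty acid oxidation, next to 8.67. Among the other kidneys with 1, Egr1 was highest in replicate 3, at 7.04 next to 6.22, Ccdc9b highest in replicate 2, at 5.06 next to 4.96, and Hsp90ab1 lowest in replicate 6, at 10.88 next to 11.08.

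With 2 kidneys, replicate 4 was lowest for Cys1, at 7.08 next to 7.29, and highest for Dpp7, at 9.26 next to 9.07. Replicate 2 was lowest for Srsf5, at 9.35 next to 9.55. Replicate 3 was highest for Aqp2, at 10.84 next to 10.30, for the cytosolic heat shock mean, at 8.74 next to 8.65, and for the osmolyte mean, at 8.25 next to 8.11. Replicate 1 was highest for Dusp6, at 9.16 next to 8.70, and for the xenobiotic metabolism mean, at 8.90 next to 8.81.

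The response in SBN/y differed from that in SBH/y by the limma interaction for 5 named genes and 1 probe set without a symbol. It was smaller in SBN/y for Havcr1 (-1.83 ± 0.34, SE; adjusted p = 0.0110), Spp1 (-1.01 ± 0.14; adjusted p = 0.000762) and Gpnmb (-1.27 ± 0.20; adjusted p = 0.00274). For Ugt2b7, a glucuronosyltransferase gene, it was more positive by 0.87 ± 0.16 (adjusted p = 0.0105): the gene stood at 0.41 in SBN/y (adjusted p = 0.228) and at -0.47 in SBH/y (adjusted p = 0.0102). For Nr1d1 it was more positive by 1.12 ± 0.24 (adjusted p = 0.0389), and for the probe set without a symbol by 0.56 ± 0.11 (adjusted p = 0.0141).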

How the results depend on the processing

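All 36 genes kept their direction at the probe set reported under each alternative run on it. The 52 probe sets became 58 with only the 11 SBN/y arrays (33 shared), 63 with a repeated quantile normalization, 48 with arrays centred on their medians, 78 of 15521 above the median probe set, 72 with a trended and robust variance, 48 at 1 probe set per gene, 62 with the GAPDH covariate and 137 with array weights (63 higher, 74 lower, all 52 shared); with 1 array left out they ranged from 24 to 78. The 79 probe sets with a different response in the strains became 124 with the GAPDH covariate, 124 with the trended and robust variance and 137 with array weights, and ranged from 52 to 131 with 1 array left out (131 without replicate 4 with 1 kidney, 52 without replicate 6 of that group). Replicate numbers shared by the groups did not pair the samples: deviations of equal numbers correlated at 0.0072 to 0.147, and 1 of 5 pairs matched its own number best. With the replicate block 48 probe sets passed (40 shared) and 67 differed between the strains. The covariate ended the call of 16 of the 36 genes, the fit of SBN/y alone 14, the replicate block 10, centring 4, the trended and robust variance 1 and single arrays 2 to 21.

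At the gene's next probe set the sign turned for Prox1 (0.051), Tsc22d1 (-0.027), Rbbp6 (0.11), Phf20l1 (0.022), Pard3 (0.027), Sqstm1 (-0.018), Synpo (0.039), Tap1 (-0.15) and Eef2 (-0.010); the cause was not tested. With 5 and 6 arrays, small changes near background are beyond reach.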
